A study of Mus musculus with 25 samples.

Results

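The proteasome is the protease complex that degrades proteins marked with ubiquitin. Its core particle is a barrel of alpha rings, which form the gate, and beta rings, which hold the active sites. A cap of ATPases and non-ATPase subunits receives ubiquitinated proteins, unfolds them and feeds them into the core, and other activators, inhibitors and assembly chaperones bind the core or the cap in passing. When the proteasome is inhibited, the transcription factor Nfe2l1 raises the genes of the whole complex together, and in the liver the proteasome also clears damaged, misfolded and short-lived regulatory proteins, p53 among them.

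The genes described here are the rows of the count table whose symbol starts with Psma, Psmb, Psmc, Psmd, Psme, Psmf or Psmg, without the interferon-inducible catalytic subunits Psmb8, Psmb9 and Psmb10. This took 47 of 24537 genes, and 46 of them were among the 14133 genes with enough counts to be tested. Psmb11, a beta subunit of the thymus, had 2 reads in all and 0 in 23 of the libraries, and was not tested. Psmc3ip is taken by its name only, since it encodes a meiotic recombination factor and no proteasome subunit, and it is 1 of the 46 genes in the counts below. The 45 other tested genes fall into 8 core alpha genes, 7 core beta genes, 6 cap ATPases, 11 cap subunits without ATPase activity, 3 cap assembly chaperones, 6 activators and inhibitors, and 4 core assembly chaperones.

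The 25 libraries hold polyA RNA of liver, all from C57BL6/J males aged 24 months. The groups were Control_Rosa26KO (Rosa26KO genotype, control diet, n = 6), HFD_Rosa26KO (Rosa26KO, high-fat diet, n = 6), Control_p53KO (p53KO, control diet, n = 6) and HFD_p53KO (p53KO, high-fat diet, n = 7). Rosa26KO names a knockout at the Rosa26 locus and served as the genotype control, so every group carried a knockout. The labels do not state how or in which cells the knockouts were made, how long the diets lasted, or whether animals were pooled.

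Total counts ran from 16324283 to 21501281 per library, and no library duplicated another. Trp53, the p53 gene, averaged 36.8 ± 4.80 (SD, n = 6) and 37.1 ± 4.56 (SD, n = 6) CPM (the reads of a gene scaled by library size) in the Rosa26KO groups on control and high-fat diet. It averaged 24.1 ± 6.89 (SD, n = 6) and 26.0 ± 4.47 (SD, n = 7) in the p53KO groups, with ranges that overlapped those of Rosa26KO. In edgeR no adjusted p of Trp53 was under the threshold (0.210 for the average of diets, with a log2 fold change of -0.56 ± 0.10, SE). The unadjusted p of that comparison was 1.48e-05 in edgeR. Values of Trp53 by DESeq2 and limma voom are not given here. The p53KO libraries thus still held Trp53 RNA, and p53KO is used here as the label. Of 10 hepatocyte markers 9 were in the table and all of these were detected in every library. By library name the samples fall into 3 runs, called library sets here, with 8, 8 and 9 libraries and 2 or 3 of each group. What a set stands for is not stated. In all 3 libraries stood apart in neutrophil markers, which summed to 591 CPM in Control_p53KO 1, 380 in HFD_Rosa26KO 6 and 75.8 in Control_p53KO 3, against 33.8 or less in the other libraries. Control_p53KO 3 also had the highest Kupffer cell and macrophage markers, with 2531 CPM against 1064 in the next library. It was highest in lymphocyte markers too (103 CPM), and lowest of its group in hepatocyte markers (78387 CPM). Control_p53KO 1 and HFD_Rosa26KO 6 also had the lowest proteasome gene levels, given below with the results that rest on them.

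Promoter windows are shown because their genes carry the results below (Psma1, Psmf1 and Psmg1) or hold the letters of a binding site for Nfe2l1 (Psmb5 and Psmb6). Each is the 250 bases before the RefSeq start on GRCm38.p6, read on the strand of the gene. Capitals mark the letters TGACNNNGC, the core of the antioxidant response element that Nfe2l1 and Nfe2l2 bind with small Maf proteins, and CCAAT, the element of NF-Y, on either strand (CCAAT on the other strand reads ATTGG). The 2 motifs did not overlap in these windows.
Psma1 (chr7:114276117-114276366, minus strand): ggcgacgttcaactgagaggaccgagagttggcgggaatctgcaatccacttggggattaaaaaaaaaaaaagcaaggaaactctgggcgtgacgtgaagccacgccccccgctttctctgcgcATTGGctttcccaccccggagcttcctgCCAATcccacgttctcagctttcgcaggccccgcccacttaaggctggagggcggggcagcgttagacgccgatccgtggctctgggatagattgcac
Psmf1 (chr2:151741311-151741560, minus strand): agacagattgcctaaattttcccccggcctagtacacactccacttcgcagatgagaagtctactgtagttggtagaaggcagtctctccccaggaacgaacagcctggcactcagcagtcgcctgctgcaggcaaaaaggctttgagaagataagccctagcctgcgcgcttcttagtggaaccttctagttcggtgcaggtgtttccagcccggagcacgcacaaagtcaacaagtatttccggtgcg
Psmg1 (chr16:95990961-95991210, minus strand): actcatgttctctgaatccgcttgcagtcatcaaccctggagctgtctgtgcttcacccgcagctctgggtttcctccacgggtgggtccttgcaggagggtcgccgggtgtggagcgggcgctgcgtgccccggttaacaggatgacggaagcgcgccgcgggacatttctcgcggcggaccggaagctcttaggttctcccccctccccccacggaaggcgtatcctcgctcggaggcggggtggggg
Psmb5 (chr14:54617996-54618245, minus strand): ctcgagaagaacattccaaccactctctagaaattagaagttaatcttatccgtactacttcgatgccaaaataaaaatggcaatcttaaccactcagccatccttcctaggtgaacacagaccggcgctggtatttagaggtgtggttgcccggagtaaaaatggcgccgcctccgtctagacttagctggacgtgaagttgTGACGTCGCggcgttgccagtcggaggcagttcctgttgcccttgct
Psmb6 (chr11:70525107-70525356, plus strand): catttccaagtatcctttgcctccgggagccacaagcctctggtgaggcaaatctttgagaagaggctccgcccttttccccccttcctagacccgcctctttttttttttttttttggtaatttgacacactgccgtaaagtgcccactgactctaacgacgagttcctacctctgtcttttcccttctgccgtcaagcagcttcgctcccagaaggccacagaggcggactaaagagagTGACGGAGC
Psma1 held CCAAT on both strands, Psmb5 and Psmb6 held 1 response element each, and the windows of Psmf1 and Psmg1 held neither. The RefSeq start of Psmf1 lies inside the gene as GENCODE M21 draws it (151715812 to 151744186 on chromosome 2), so other windows are possible. Over the 39 genes of the group with a window, TGACNNNGC stood in 5 (Psmb5, Psmb6, Psmc6, Psmd9 and Psmd12), or 12.8%, against 11.5% of the 27025 genes with a RefSeq window. CCAAT stood in 14, or 35.9%, against 37.5% of the same genes.

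The core and cap subunits were abundant, and their chaperones lay lower but above the median of all genes. Per kb of exon, the median of the tested genes was 37.9 CPM, against 4.60 CPM over all genes tested with a known length. The beta ring stood highest, with a median of 81.1 CPM per kb, led by Psmb6 (105.6), the caspase-like active subunit. The alpha ring followed with 53.1, the cap ATPases with 50.1 and the other cap subunits with 38.7 CPM per kb. Within these roles the levels ran from 27.3 (Psmb1) to 105.6 CPM per kb in the beta ring, from 33.7 (Psmc6) to 57.3 (Psmc1) in the ATPases and from 27.6 (Psmd12) to 66.6 (Psmd8) in the rest of the cap. The assembly chaperones, which leave the finished particle, lay far lower, between 8.03 (Psmd5) and 10.5 (Psmd9) CPM per kb for the cap and between 7.80 (Psmg3) and 13.5 (Psmg1) for the core. Activators spanned a wide range. Psme1, a subunit of the interferon-inducible activator PA28, reached 97.9 CPM per kb, while Psme2b, a near copy of the other subunit Psme2, had 3.62 and Psmf1, the proteasome regulator PI31, had 9.70. Psma8, the alpha subunit of the testis, was at 0.48 CPM per kb and Psmc3ip at 0.52.

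**Figure D1:**
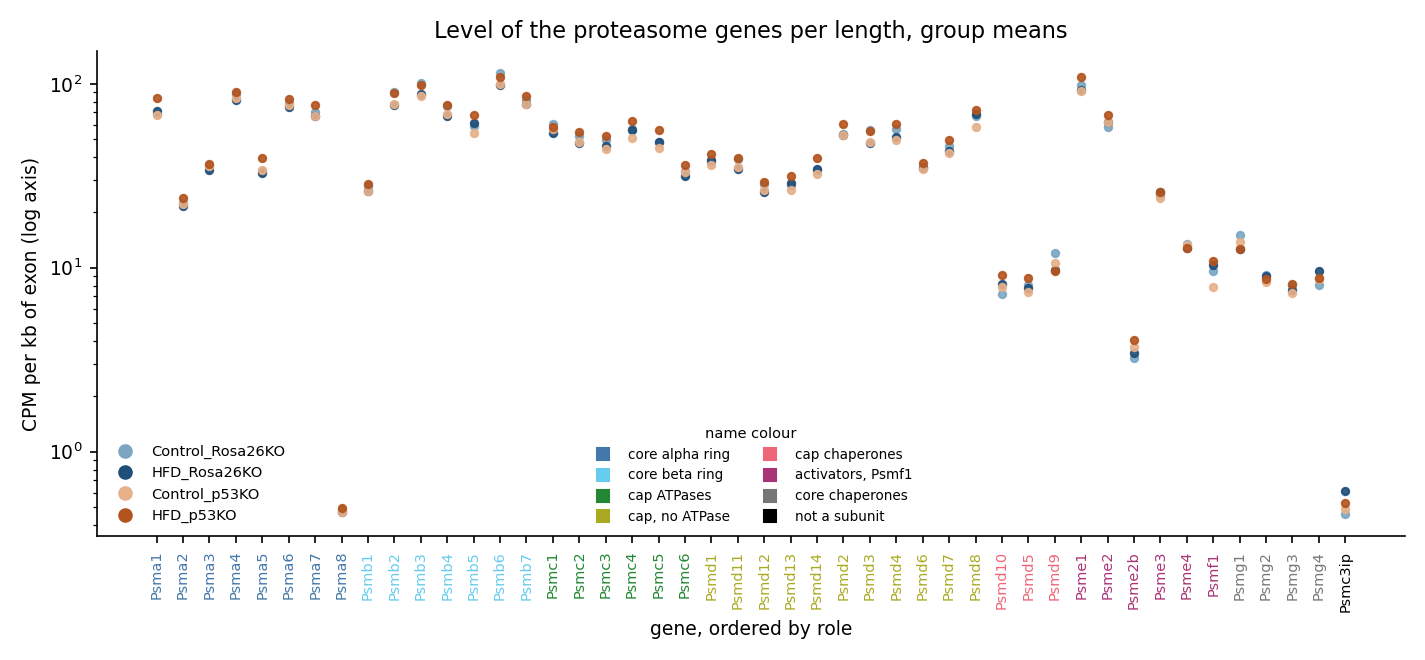
Mean level per kb of exon (CPM per kb, log axis) of the 46 tested genes in each of the 4 groups (coloured points), with gene names coloured by role. Over all libraries, beta ring genes averaged from 27.3 to 105.6 (median 81.1) and both kinds of assembly chaperone from 7.80 to 13.5. The 4 group means of a gene lie close together compared with the distance between genes.

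Variation between libraries was shared by much of the complex, and it did not separate the groups. The 47 genes summed to 3392 ± 357 CPM (SD, n = 7) in HFD_p53KO and to 2989.6 ± 275 (SD, n = 6) in Control_p53KO. The sums in Rosa26KO were 3044 ± 336 (SD, n = 6) on high-fat diet and 3208 ± 293 (SD, n = 6) on control diet. The ranges of all 4 groups overlapped. The highest library was HFD_p53KO 6 with 4016 CPM, where 45 of 46 tested genes lay above their own mean over libraries, and the lowest was HFD_Rosa26KO 6 with 2573 CPM, where 3 of 46 did. The spread of a single gene within groups had a median SD of 0.18 on the log2 scale, against 0.27 over all genes tested. These were not matched for level, and the proteasome genes had the higher median level (37.9 against 4.60 CPM per kb). Among the proteasome genes Psma1 had the smallest SD (0.12) and the low-count Psma8 the largest (0.66).

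**Figure D2:**
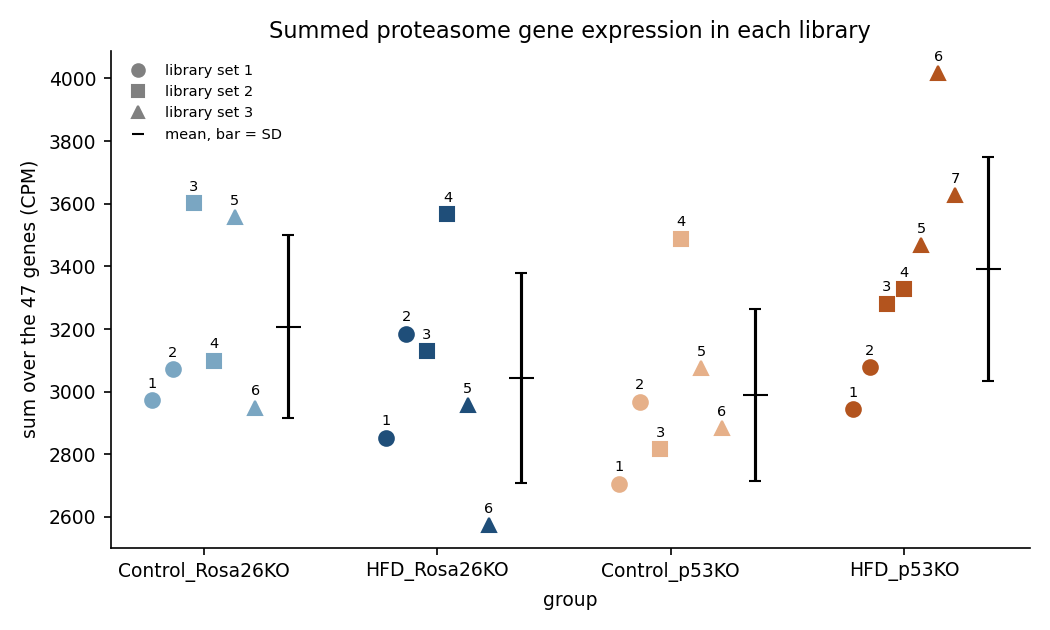
Sum of the 47 genes in CPM for each library (numbered points, shape by library set), with the group mean and SD beside them (the axis does not start at 0). The 4 groups overlap, and the 3 highest libraries of HFD_p53KO (numbers 5, 6 and 7) are all of library set 3.

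Genes of the core and of the cap ATPases varied together from library to library. After the group means were removed, the median correlation over 1035 pairs of tested genes was 0.62 across the 25 libraries. It was 0.87 within the beta ring, 0.80 within the alpha ring and 0.80 within the ATPases. It was 0.67 within the other cap subunits, and core genes with cap genes gave 0.75. Psmb7, the trypsin-like active subunit, followed the mean of the others most closely (r = 0.95), with Psmb4 (0.95) and Psmc2 (0.95) beside it. A few genes did not follow. Psmd8 (0.19), a cap subunit, and Psmf1 (0.19) moved little with the rest, and Psma8 (-0.07), Psmd10 (-0.09), Psme3 (-0.19), a nuclear activator, and Psmc3ip (-0.44) moved on their own or the other way. These correlations share libraries and scaling and are given as descriptions.

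Some genes outside the group moved as closely with it as its own members. Among 10237 other genes with a mean of at least 5 CPM, 341 (3.33%) had a correlation above 0.8 with the mean of the group within groups, beside 25 of 46 group members. The closest was Ndufs6 (r = 0.95, rho = 0.94, and 0.93 without the 2 libraries farthest from the median), a subunit of respiratory complex I. Ndufb3, Apoe, Ndufs4, Pebp1, Vti1b, 2810428I15Rik, Atp5j2, Chchd2 and Tmem242 came next. Ndufb3, Ndufs4 and Atp5j2 also encode subunits of respiratory complexes. Proteasome genes are short, with a median exon length of 1505 bases against 3216 over all genes tested. The difference between genes of short (under 1000 bases) and long (over 5000 bases) exon length in a library, on the log2 scale, followed the group mean with r = 0.86 and rho = 0.90 (0.82 without the 2 farthest libraries). It averaged 0.02 ± 0.25 (SD, n = 7) in HFD_p53KO and -0.08 ± 0.10 (SD, n = 6) in Control_p53KO, and was 0.32 in HFD_p53KO 6 and 0.35 in HFD_p53KO 7. In Rosa26KO it averaged -0.03 ± 0.15 (SD, n = 6) on high-fat diet and 0.09 ± 0.14 (SD, n = 6) on control diet. Its mean was thus higher on high-fat diet in p53KO and lower in Rosa26KO, as was that of the summed proteasome genes. Markers of neutrophils (r = -0.66, rho = -0.61), endothelial cells (-0.52 and -0.58) and Kupffer cells (-0.46 and -0.58) went the other way, and hepatocyte markers followed weakly (r = 0.33, rho = 0.44). Circadian clock genes followed more closely than these (r = 0.45, rho = 0.53). Their sum in HFD_p53KO was 286 and 332 CPM in library set 1, 421 and 415 in set 2, and 673, 537 and 711 in set 3. In Control_p53KO it was 590 and 442 CPM in set 3. The part of transcript length, of other cells or of the clock in the proteasome levels was not tested.

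**Figure D3:**
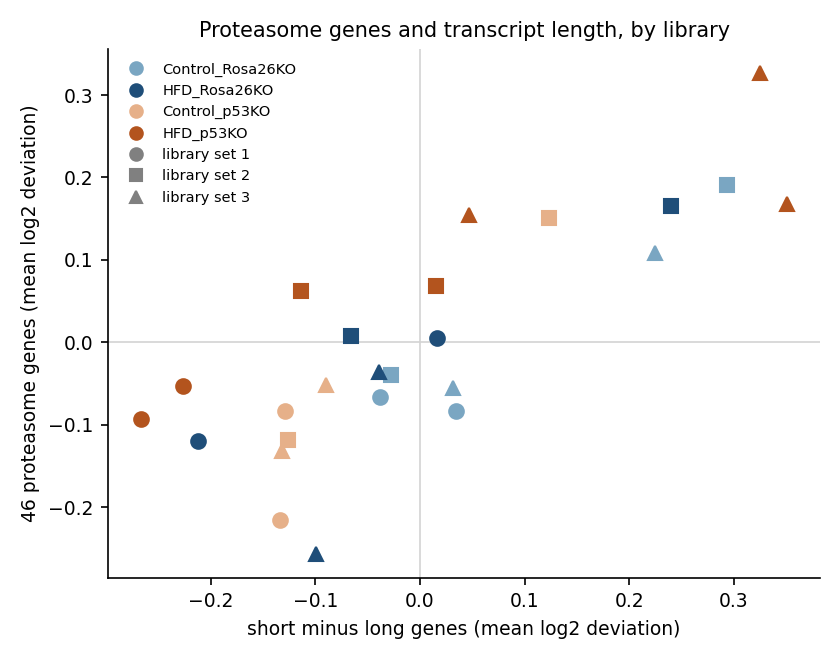
Mean log2 deviation of the 46 tested genes (vertical axis) against the mean log2 difference between short and long genes (horizontal axis) in each of the 25 libraries, both as deviations from the mean over libraries, with colour by group and shape by library set. The points rise together (r = 0.86 within groups), and libraries of all 4 groups lie along the same band.

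The first question of the design was what a high-fat diet does in each genotype. In the p53KO libraries 43 of 46 proteasome genes had a log2 fold change above 0 on high-fat diet, against 45.9% of all genes tested. The exceptions were Psmd9, Psme4 and Psmg1, and Psmc3ip was among the 43. Their median was 0.16, against -0.02 over all genes tested. Only 2 passed an adjusted p of 0.05 in edgeR, Psma1 and Psmf1, both higher. That is 4.35% of the tested genes of the group, beside 2.87% of all genes in either direction (1.62% higher). At an unadjusted p under 0.05, 16 were higher and 0 lower, against 9.05% of all genes higher and 9.78% lower. The genes varied together between libraries (median correlation 0.62), so the gene counts here and below are not counts of independent observations. Averaged over the tested genes, the log2 deviation from the mean over libraries was 0.09 ± 0.14 (SD, n = 7) in HFD_p53KO. In Control_p53KO it was -0.08 ± 0.12 (SD, n = 6), and the ranges overlapped. These livers were bulk tissue, so fewer cells of a type and less RNA per cell cannot be told apart. The labels do not say that libraries came from separate animals, so p-values measure the spread between these samples. Cell marker sums stand beside these values. The 9 hepatocyte markers, none at 0, summed to 78387 to 146943 CPM in Control_p53KO and 53000.4 to 120951 in HFD_p53KO, and to 103178 to 164946 and 66773 to 160271 in Rosa26KO on control and high-fat diet. The 8 endothelial markers summed to 247 to 453 CPM in Control_p53KO and 129.8 to 371 in HFD_p53KO, and to 213 to 358 and 262 to 486 in Rosa26KO. All of these ranges overlapped, although the mean hepatocyte sum was lower on high-fat diet in both genotypes. On high-fat diet it was 78324 ± 21311 CPM (SD) for p53KO, against 128057 ± 26099 on control diet. For Rosa26KO these means were 104216 ± 34880 and 138093 ± 28160. Control_p53KO 3 was the only library of its group below the highest HFD_p53KO library. The endothelial mean was lower on high-fat diet in p53KO (247 against 332 CPM) and higher in Rosa26KO (341 against 310). The part of the markers in the proteasome differences was not tested.

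By role, log2 fold changes above 0 in p53KO ran through the core and the cap, and the core chaperones lay nearest to 0. All 8 alpha genes had a log2 fold change above 0, from 0.04 (Psma3) to 0.29 (Psma1). All 7 tested beta genes did, from 0.13 (Psmb6) to 0.32 (Psmb5, the chymotrypsin-like active subunit). The 6 ATPases ran from 0.05 (Psmc1) to 0.33 (Psmc5), and the 11 other cap subunits from 0.10 (Psmd6) to 0.30 (Psmd14, the deubiquitinase that removes ubiquitin chains at the entrance). The 4 core chaperones lay between -0.13 (Psmg1) and 0.16 (Psmg3). None of these beta, cap or chaperone genes passed the threshold. Psmc4, an ATPase, came nearest, with a log2 fold change of 0.31 ± 0.09 (SE) and an adjusted p of 0.0564 in edgeR. It had 65.3 to 82.5 CPM in Control_p53KO and 75.2 to 105.5 in HFD_p53KO, so the groups overlapped. Psmd14 had a log2 fold change of 0.30 ± 0.09 (SE) with an adjusted p of 0.0788 in edgeR. DESeq2 called 5 genes higher (Psma1, Psmc4, Psmd7, Psmd14 and Psmf1), against 3.4% of all genes, and limma voom 9, against 7.87%.

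Group means of the other genes taken by role give the scale of these differences (SD, n = 7 for HFD_p53KO and n = 6 for the rest). Psma3, an alpha subunit, averaged 102 ± 9.99 CPM in Control_p53KO and 105 ± 13.2 in HFD_p53KO, beside 103 ± 12.8 and 97.0 ± 12.1 in Rosa26KO on control and high-fat diet. Its means differed by less than their SD. Psmb5 averaged 48.7 ± 6.69 and 60.8 ± 8.38 CPM in p53KO in the same order of diets, and 52.9 ± 10.3 and 54.8 ± 11.3 in Rosa26KO. The beta subunit Psmb3 had 65.9 ± 9.05 and 75.1 ± 14.2 CPM in p53KO, and 77.6 ± 14.0 and 67.7 ± 10.9 in Rosa26KO. Psmb7 had 89.97 ± 16.1 and 99.8 ± 15.1 CPM in p53KO, and 95.3 ± 11.0 and 90.5 ± 15.1 in Rosa26KO. For Psmb3 and Psmb7 the mean was higher on high-fat diet in p53KO and lower in Rosa26KO, within overlapping ranges.

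Among the ATPases, which unfold substrates, Psmc4 averaged 73.1 ± 6.02 and 90.8 ± 11.2 CPM in p53KO on control and high-fat diet, and 81.3 ± 6.75 and 80.6 ± 10.9 in Rosa26KO. Psmc3 had 89.9 ± 7.31 and 107 ± 16.1 CPM in p53KO, and 101 ± 9.38 and 93.3 ± 11.2 in Rosa26KO. Psmc6 had 73.8 ± 10.9 and 80.9 ± 7.05 CPM in p53KO, and 75.4 ± 7.56 and 70.4 ± 6.78 in Rosa26KO. The high-fat p53KO group had the highest mean of all 3. In the rest of the cap Psmd2, a large scaffold subunit, had 156 ± 12.1 and 179 ± 20.9 CPM in p53KO, and 158 ± 16.8 and 157 ± 21.5 in Rosa26KO. Psmd14 had 49.5 ± 6.38 and 61.0 ± 5.497 CPM in p53KO, and 52.1 ± 4.76 and 53.1 ± 7.87 in Rosa26KO. For both, the Rosa26KO means of the diets lay within 1 SD of each other.

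The cap chaperone Psmd5 had 32.5 ± 5.63 and 38.4 ± 4.79 CPM in p53KO, and 35.5 ± 3.61 and 34.2 ± 3.20 in Rosa26KO. Psmd10 had 11.6 ± 2.15 and 13.5 ± 1.28 CPM in p53KO, and 10.6 ± 0.685 and 11.99 ± 1.23 in Rosa26KO. Psmd10 thus had a higher mean on high-fat diet in both genotypes. Psmd9, the third cap chaperone, had the lower mean on high-fat diet in both, with 27.6 ± 6.64 and 24.98 ± 5.33 CPM in p53KO, and 31.3 ± 5.21 and 25.2 ± 4.12 in Rosa26KO. Averaged over genotypes its log2 fold change was -0.23 ± 0.11 (SE), with an adjusted p of 0.205 in edgeR. Psme1 had 102 ± 16.7 and 121 ± 10.2 CPM in p53KO, and 109 ± 8.16 and 102 ± 10.6 in Rosa26KO. The scarce Psme2b stayed between means of 2.72 ± 0.655 (Control_Rosa26KO) and 3.39 ± 0.724 CPM (HFD_p53KO), and Psmg2 between 10.9 ± 0.611 (Control_p53KO) and 11.8 ± 0.924 (Control_Rosa26KO).

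Psmf1 showed the clearest difference. It encodes PI31, first described as an inhibitor of the core and later as an adaptor in proteasome transport. In Control_p53KO it ran from 24.1 to 40.0 CPM with a median of 30.9, and in HFD_p53KO from 40.5 to 46.5 with a median of 43.3. No HFD_p53KO library was below any Control_p53KO library, although Control_p53KO 4 lay just under the lowest of them. The rise was 36.9%, or 0.45 ± 0.10 (SE) on the log2 scale, with an adjusted p of 0.0144 in edgeR. In the Rosa26KO libraries Psmf1 ran from 33.8 to 50.3 CPM (median 35.5) on control diet and from 38.1 to 45.4 (median 40.5) on high-fat diet. These groups overlapped, with a log2 fold change of 0.11 ± 0.10 (SE). Control_p53KO was the lowest of the 4 groups for Psmf1, and the other 3 had means between 38.1 and 43.2 CPM. Psmf1 was among the genes that did not follow the rest of the complex. Its difference in p53KO was 0.47, 0.53 and 0.39 on the log2 scale within library sets 1, 2 and 3. It stayed past the threshold when any 1 library of the 2 compared groups was left out, with the smallest difference (0.39) without Control_p53KO 3. The difference was 0.33 with an adjusted p of 0.0611 in edgeR without the 3 libraries high in neutrophil markers, of which 2 were Control_p53KO.

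Psma1, an alpha subunit, ran from 76.1 to 95.3 CPM (median 82.3) in Control_p53KO and from 92.9 to 118.9 (median 101.9) in HFD_p53KO. The groups touched only through Control_p53KO 4, which lay above HFD_p53KO 1. The rise was 22.3%, or 0.29 ± 0.07 (SE) on the log2 scale, with an adjusted p of 0.0282 in edgeR. In Rosa26KO it had 78.2 to 91.2 CPM (median 85.3) on control diet and 72.6 to 96.8 (median 91.0) on high-fat diet, a log2 fold change of 0.06 ± 0.07 (SE). HFD_p53KO had the highest mean of Psma1, and the means of the other 3 groups lay between 84.4 and 88.6 CPM. Unlike Psmf1, Psma1 followed the rest of the complex (r = 0.85). It passed the threshold in 7 of 13 fits that left out 1 library of the compared groups. Both genes lost the threshold when only the libraries of the 2 compared groups were fitted, with adjusted p of 0.122 (Psma1) and 0.0641 (Psmf1) in edgeR.

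In the Rosa26KO libraries 13 of 46 proteasome genes had a log2 fold change above 0 on high-fat diet, against 50.6% of all genes, with a median of -0.07 against 0.00 over all genes tested. Psmc3ip was among the 13. The count was 21 without Control_Rosa26KO 3 and 23 without library set 3, and 9 to 21 over all fits that left out 1 library. By edgeR 0 passed the threshold, beside 1.51% of all genes. At an unadjusted p under 0.05, 0 were higher and 3 lower (Psmb2, Psmd3 and Psmg1), against 7.55% of all genes higher and 9.91% lower. DESeq2 called 0, against 4.35% of all genes, and limma voom called 3 lower (Psmb2, Psmd9 and Psmg1), against 10.9% of all genes. The beta ring had the lowest median by role among the core and cap (-0.19), with Psmb2, a beta subunit without an active site, at -0.24 ± 0.09 (SE).

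**Figure D4:**
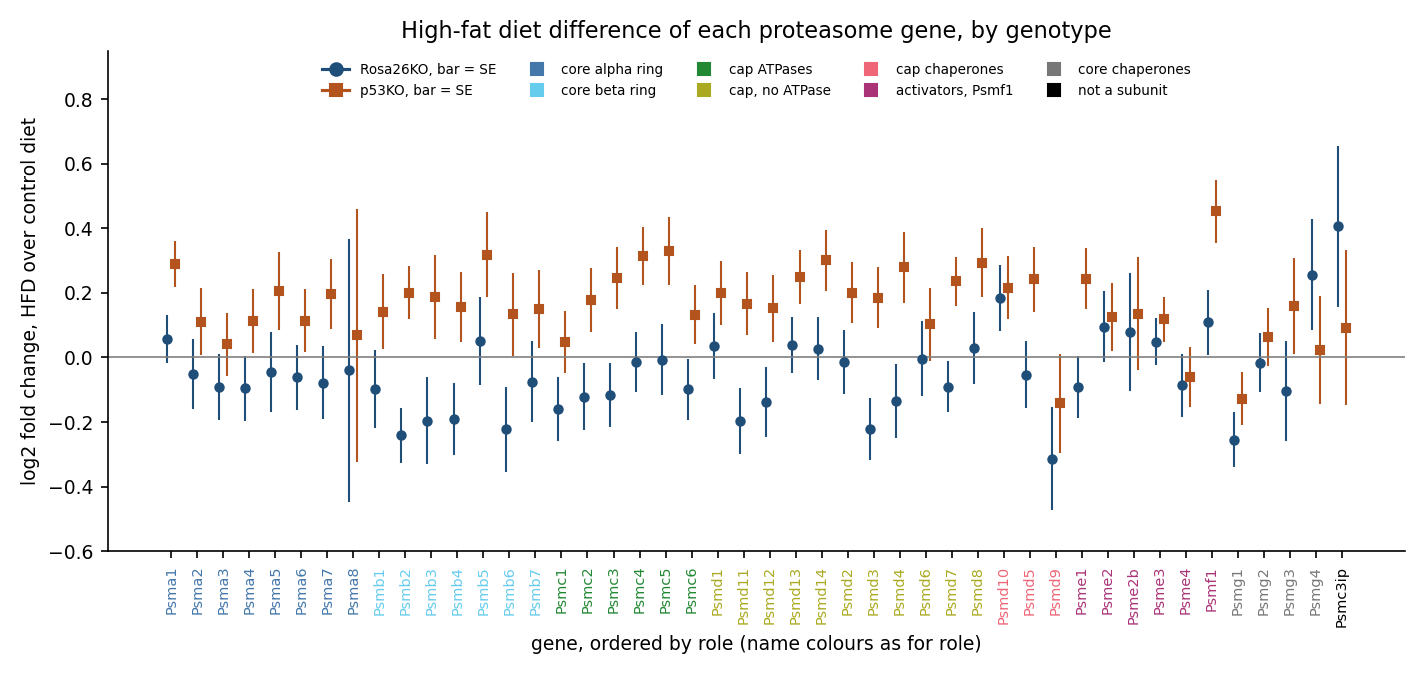
Log2 fold change on high-fat diet over control diet (vertical axis, bars are SE) of the 46 tested genes, ordered and coloured by role, in Rosa26KO (circles) and p53KO (squares). The p53KO points lie above 0 for 43 genes and the Rosa26KO points for 13, and the highest point is Psmf1 in p53KO (0.45).

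The diet differences in p53KO were uneven between library sets. The mean log2 difference of the tested genes was 0.08 in set 1, 0.05 in set 2 and 0.31 in set 3. In Rosa26KO it was 0.02, 0.01 and -0.17. Set 3 holds the highest library (HFD_p53KO 6) and the lowest (HFD_Rosa26KO 6). Without set 3 the median log2 fold change in p53KO was 0.04 and 28 of 46 genes were above 0. Without those 2 libraries the median was 0.12 and 40 were above 0, and both Psma1 (0.25, adjusted p of 0.0425 in edgeR) and Psmf1 (0.46, 0.0277) passed. Without any 1 of the 3 sets, 0 genes passed in p53KO, while the log2 fold change of Psmf1 stayed between 0.44 and 0.47. Fewer libraries were fitted there, and the shares of all genes called are not given here. That 0 is therefore not read as a result about proteasome genes.

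Averaged over genotypes, 3 of 46 genes passed the threshold in edgeR, or 6.52%, beside 9.71% of all genes. The share in the group was below that of all genes. In all 35 of 46, Psmc3ip included, had a log2 fold change above 0, against 47.6% of all genes. The calls were 2 genes higher, against 4.64% of all genes, and 1 lower, against 5.07%. Psmf1 was higher by 0.28 ± 0.07 (SE) on the log2 scale, with an adjusted p of 0.0130, and Psma1 by 0.17 ± 0.05 (SE), with an adjusted p of 0.0325. Psmg1 was lower by the same comparison, with a log2 fold change of -0.19 ± 0.06 (SE) and an adjusted p of 0.0402. DESeq2 called the same 3 genes, against 12.7% of all genes, and limma voom called 9, against 35.4%.

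Psmg1 encodes PAC1, which with Psmg2 (PAC2) builds the alpha ring and is then degraded. It had 13.7 to 18.1 CPM (median 15.6) in Control_Rosa26KO and 12.5 to 15.3 (median 12.8) in HFD_Rosa26KO. In p53KO it had 13.4 to 16.5 CPM (median 14.4) on control diet and 11.6 to 15.1 (median 13.1) on high-fat diet. The groups overlapped in both genotypes, with log2 fold changes of -0.25 ± 0.08 (SE) in Rosa26KO and -0.13 ± 0.08 (SE) in p53KO. By library set the difference was -0.22, -0.25 and -0.28 in Rosa26KO and -0.19, -0.27 and 0.01 in p53KO. Its partner Psmg2 differed by 0.02 ± 0.06 (SE). Psmg1 kept the threshold in 8 of 25 fits that left out 1 library, Psma1 in 14 and Psmf1 in 25. Psmd10, the cap chaperone gankyrin, which is also known to promote p53 degradation through Mdm2, came next with 0.20 ± 0.07 (SE) and an adjusted p of 0.0767 in edgeR.

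**Figure D5:**
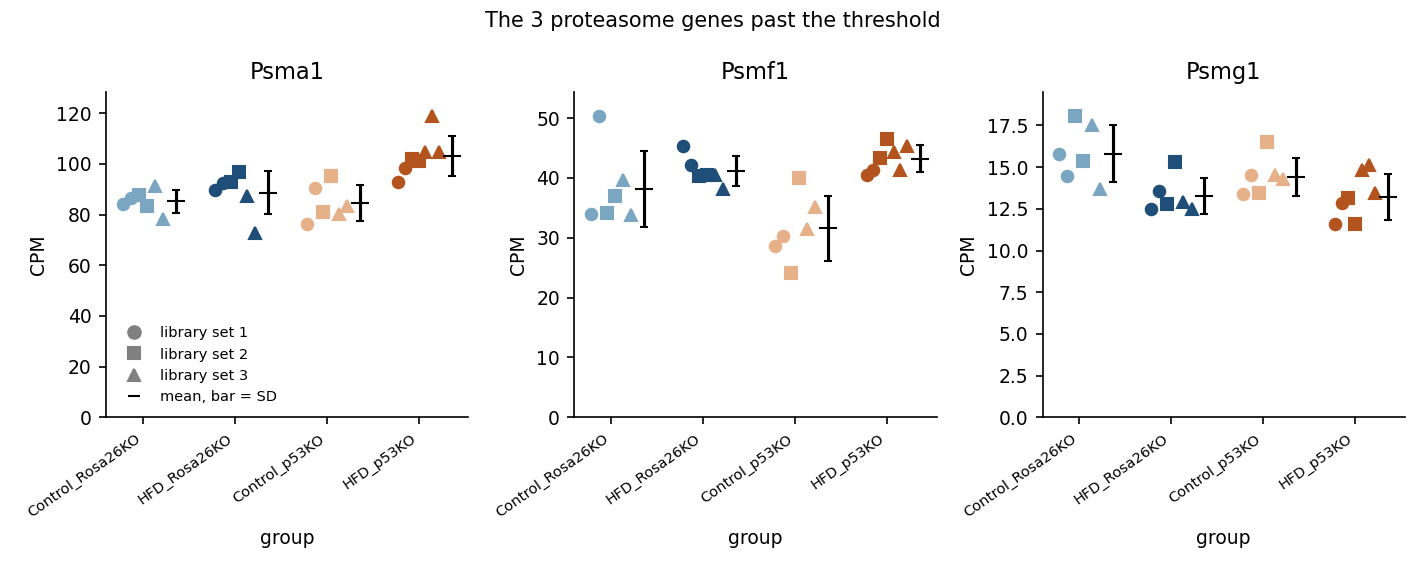
CPM of Psma1, Psmf1 and Psmg1 in each library by group (points, shape by library set), with the group mean and SD. HFD_p53KO lies above Control_p53KO for Psmf1 (40.5 to 46.5 against 24.1 to 40.0) and mostly for Psma1, and both high-fat groups have lower means than their controls for Psmg1.

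The second question was whether the genotypes differ. On control diet 6 of 46 genes, Psmc3ip included, had a log2 fold change above 0 in p53KO over Rosa26KO, against 51.9% of all genes, with a median of -0.09. The 6 were 12 without Control_p53KO 1, Control_Rosa26KO 3 or Control_Rosa26KO 5, and 5 to 12 over all fits that left out 1 library. On high-fat diet 41 of 46 did, against 52.8% of all genes, with a median of 0.15. In edgeR 0 proteasome genes passed the threshold on either diet or on average, beside 0% of all genes, and DESeq2 (0.00708% of all genes on each diet, 0.0495% on average) and limma voom (0% on each diet, 0.0142% on average) called 0 of them too. At an unadjusted p under 0.05, 3 were lower on control diet (Psmb2, Psmd3 and Psmf1), against 4.12% of all genes lower, and 9 were higher on high-fat diet, against 1.73% of all genes higher. Those 9 were Psma1, Psma5, Psmb2, Psmc6, Psmd3, Psmd7, Psmd11, Psmd14 and Psme1. On average 1 was higher (Psmd10), against 2.36%, and 32 of 46 had a log2 fold change above 0, against 53.3%. Leaving out 1 library turned the 32 into 20 (without HFD_Rosa26KO 6) to 38 (without HFD_p53KO 1), with 21 without Control_p53KO 4. Without library set 3 the count was 8 and the median was -0.07. Within library sets the mean log2 difference on high-fat diet was -0.02, -0.02 and 0.36, so the difference rested on set 3. Without that set its median was -0.03 and 14 genes were above 0. On control diet the sets gave -0.07, -0.06 and -0.12. Without the 3 libraries high in neutrophil markers the median on control diet was -0.04, with 12 genes above 0.

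The diet response was compared between genotypes by the interaction, the high-fat diet difference in p53KO minus that in Rosa26KO. It was above 0 for 44 of 46 genes, against 48.9% of all genes, with a median of 0.24. The exceptions were Psmg4 (-0.23) and Psmc3ip (-0.31). In edgeR 0 genes passed, beside 0% of all genes, and DESeq2 (0.0354% of all genes) and limma voom (0%) called 0 of them. At an unadjusted p under 0.05, 13 were higher, against 4.47% of all genes, with Psmb2 (0.44 ± 0.12, SE) at the top and an adjusted p of 0.515 in edgeR. Psmf1 had 0.34 ± 0.14 (SE) and Psma1 0.23 ± 0.10 (SE), with adjusted p of 0.560 and 0.570, so their diet responses were not shown to differ between genotypes. The median was 0.03 without library set 3, and 0.13 without HFD_p53KO 6 and HFD_Rosa26KO 6. This comparison and the ones above use the same libraries, so their medians are not separate pieces of evidence.

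Genes that work with the proteasome were read off the same fit. Of the 16 tested partners without a Psm symbol, 1 passed in p53KO, beside 2.87% of all genes, and the same gene on average, beside 9.71% of all genes. It was Zfand2a, a proteasome-associated protein induced by arsenite, higher by 0.58 ± 0.15 (SE) on the log2 scale in p53KO with an adjusted p of 0.0388 in edgeR. Pomp, the maturation factor of the core, had 0.21 ± 0.12 (SE) in p53KO and 0.01 ± 0.12 (SE) in Rosa26KO, and passed in neither. Of 14 tested genes of the Nfe2l1 pathway, 1 passed on average, beside 9.71% of all genes, the small Maf gene Mafk (0.31 ± 0.10, SE, adjusted p of 0.0476 in edgeR). Nfe2l1 itself averaged 177.7 ± 13.9 CPM (SD, n = 7) in HFD_p53KO against 146.3 ± 17.4 (SD, n = 6) in Control_p53KO. In Rosa26KO it averaged 166 ± 20.6 (SD, n = 6) on high-fat diet against 148 ± 26.2 (SD, n = 6) on control diet. On average its diet difference was 0.22 ± 0.08 (SE), with an adjusted p of 0.0634 in edgeR. Across libraries, within groups, Nfe2l1 followed the proteasome mean weakly (r = 0.22, rho = 0.21).

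Of the 12 tested targets of Nrf2, which binds the same response element, 4 were higher on average (Nqo1, Srxn1, Txnrd1 and Gsta1) and 0 lower, beside 4.64% of all genes higher and 5.07% lower. Nqo1 was higher by 1.24 ± 0.21 (SE, adjusted p of 0.000822 in edgeR).

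The inducible catalytic subunits, which replace the active beta subunits under interferon, did not pass in any comparison. Psmb8 averaged 58.7 ± 11.0 CPM (SD, n = 7) in HFD_p53KO against 47.9 ± 12.8 (SD, n = 6) in Control_p53KO. In Rosa26KO it averaged 49.1 ± 6.76 (SD, n = 6) on high-fat diet against 41.3 ± 9.33 (SD, n = 6) on control diet. Averaged over genotypes Psmb8, Psmb9 and Psmb10 had log2 fold changes of 0.27 ± 0.11, 0.22 ± 0.11 and 0.02 ± 0.09 (SE), with adjusted p of 0.138, 0.205 and 0.940 in edgeR. Over the same comparison 10 of 19 interferon-stimulated genes were higher and 0 lower, beside 4.64% of all genes higher. Of the 8 tested genes of peptide supply and loading to MHC class I, which use the products of the proteasome, 0 passed in edgeR in any comparison, where 0% (genotype and interaction) to 9.71% (average diet) of all genes did. At an unadjusted p under 0.05, 4 of them were higher and 0 lower on average over genotypes. The share of all genes at this looser rule is not given here, so that count is not read as a result about these genes. Across libraries the mean of the inducible subunits followed the constitutive genes little (r = 0.11, rho = 0.06).

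Several symbols share sequence with other genes, and the strand used in counting is not given in the sources used here. Exons of 13 of the genes (Psmc3ip with Mlx among them) overlap those of another gene. The largest overlap was that of Psmd9 with Gm26745 (1849 bases). Others were Psmb7 with Nek6 (405 bases), Psmc3 with Slc39a13 (215 bases) and Psmd13 with Sirt3 (342 bases), and all of these are on the opposite strand. On the same strand Psmd1 overlaps Gm21972 (301 bases), Psmg3 Gm26938 (280 bases), Psmb5 Mir686 (109 bases) and Psme2b 9930111J21Rik1 (41 bases). Psme2 and Psme2b are near copies, so reads may be split between them. Psma1, Psmf1 and Psmg1 have no such overlap.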

How the data were processed

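RNA of 25 liver samples was read as pairs of 75 bases, per the labels' protocols. The authors deposited 1 table of raw read counts per gene. STAR, HOMER and the build GRCm38 (mm10) are named in the submitters' processing notes. Their versions, the gene annotation and the strand setting were not given in the sources used here. In edgeR 4.0.16 genes were filtered with filterByExpr (minimum count 10, minimum total 15), libraries scaled by TMM, and the quasi-likelihood test fitted to all libraries with 1 mean per group. In each of 7 comparisons p was 2-sided and adjusted over 14133 genes by Benjamini-Hochberg, with a threshold of 0.05. Alternatives were DESeq2 1.42.0 and limma 3.58.1 (voom) in R 4.3.3, other scaling and filters, a replicate block, library set as a term, and leaving out libraries or sets. Plots were drawn with Python 3.11.15. For correlations the prior count was 2 on log2 CPM, and group means were subtracted. Exon lengths come from the basic set of GENCODE M21, positions and exon overlaps from its full set, and promoters from RefSeq (39 of 47 genes matched). The procedure was tested on simulated data.

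The genes and lists were chosen with earlier results of these data known. Given in full were the genes past the threshold in any comparison and, in each role, those of smallest p for the average diet and genotype comparison and of highest CPM, with the 10 most alike genes, Nfe2l1, the inducible subunits and up to 4 called genes of each other list. Further single genes were named after their values were seen. The ubiquitin list is not reported here.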

Additional observations from a re-analysis of the deposited data

Results flagged for a closer look

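In 4 of 72 groups of samples tested (the summed level and 17 genes, each in 4 groups) the highest or lowest library lay far from the others, and chance alone marks about 1 in 20 such groups. Control_p53KO 4 was high in Psmd14, with 61.9 CPM against 49.9 in the next library, and in Psmg1, with 16.5 CPM against 14.5. Without it 7 proteasome genes passed the threshold for diet in p53KO, a fit for which the share of all genes called is not given here. HFD_Rosa26KO 6 was low in Psmd5, with 27.9 CPM against 34.7 in the next library. Control_Rosa26KO 2 was high in Psmf1, with 50.3 CPM against 39.6, and without it the diet difference of Psmf1 averaged over genotypes was 0.33 on the log2 scale.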

How the results depend on the processing

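For diet in p53KO the count of proteasome genes past the threshold, 2, was 5 by DESeq2, 9 by limma voom, and 0 with only the compared groups fitted, without library set 1, 2 or 3, without the 3 libraries high in neutrophil markers, and without the 4 high in acute phase genes (Control_p53KO 1, Control_Rosa26KO 1, HFD_p53KO 2 and HFD_p53KO 7). Leaving out 1 library gave 1 to 7, with 7 without Control_p53KO 4 and 1 without Control_p53KO 1, 2, 5 or 6 or HFD_p53KO 4 or 6. Averaged over genotypes the count of 3 was 1 with no filter on low counts, 9 by limma voom, 5 with a replicate block, and 0 without library set 1, 2 or 3 or the 4 acute phase libraries. Leaving out 1 library gave 1 to 4, with 1 without Control_Rosa26KO 1 or 4, HFD_Rosa26KO 1, 2 or 3, or Control_p53KO 5 or 6. In Rosa26KO limma voom called 3. Apart from DESeq2 and limma voom, the shares of all genes called under these settings are not given here. The counts therefore do not show a change particular to proteasome genes. Fewer samples were fitted where libraries were left out, and the cause of the other changes was not tested. The replicate numbers did not pair the samples, with correlations from -0.529 to 0.574 between libraries of the same number, and the block moved no other count of proteasome genes by over 1.5 times. For genotype and for the interaction the count was 0 under every setting run. No called gene changed sign. For the genotype average, genes above 0 fell from 32 to 8 of 46 without library set 3 and to 11 without HFD_p53KO 6 and HFD_Rosa26KO 6, a choice made after seeing the data. Total counts of 16324283 to 21501281 leave genes such as Psma8, with 401 reads in all, imprecise.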
